A study of Mus musculus with 35 samples.

Results

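The transcription factor gene Myc and 8 genes of ribosome biogenesis (Ncl, Npm1, Fbl, Nop56, Nop58, Polr1a, Polr1b and Ubtf) were followed across the 6 groups of an mRNA sequencing study of the mouse heart. They were taken by name, and all 9 were found among the 27012 genes of the deposited table and among the 13695 genes with a mean normalized count of at least 10. The tissue was the apex of the heart, taken on day 3 after surgery at 6 weeks of age. The surgery was transaortic constriction (TAC), in which a suture narrows the aortic arch so that the left ventricle has to pump against a higher pressure, or a sham operation, and the mice were of the strain C57Bl/6/FVB. WT mice carried IRS2-flox and no Cre. IRS1KO mice were alphaMHC-Cre X IRS1-flox and IRS2KO mice alphaMHC-Cre X IRS2-flox, and the alphaMHC promoter drives Cre in cardiomyocytes, so other cell types of the apex are expected to keep the floxed gene. No group carried Cre alone, so a difference between IRS2KO and WT cannot be told apart from one of Cre. The floxed alleles also differed between IRS1KO and WT, so a difference between these cannot be told apart from one of Cre or of the flox background. Each group held 6 libraries, and WT TAC held 5.

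Myc is a transcription factor that binds DNA as a pair with Max and is known for raising the output of genes for growth, ribosome production among them. Ribosomes are built in the nucleolus: RNA polymerase I, of which Polr1a and Polr1b are the largest subunits, copies the ribosomal DNA with the help of the factor Ubtf. Fbl (fibrillarin, the methyltransferase), Nop56 and Nop58 are among the core proteins of the box C/D small nucleolar ribonucleoproteins, which guide methylation of the new ribosomal RNA. Ncl (nucleolin) and Npm1 (nucleophosmin) are abundant nucleolar proteins that take part in rRNA processing, ribosome assembly and transport. In the pressure-loaded heart, early induction of Myc and growth of the ribosome pool are textbook features of hypertrophy.

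After TAC, Myc rose 3.87-fold in WT, 4.63-fold in IRS1KO and 3.98-fold in IRS2KO. Npm1, Fbl and Nop58 also rose in each of the 3 genotypes, by 1.36-fold to 1.70-fold. On the authors' scaling Polr1a fell in each genotype, by 1.21-fold to 1.43-fold, but when all libraries were brought to one total its fall was left in IRS1KO alone and its direction turned in IRS2KO. Ubtf passed the test in none of the 3 genotypes on the authors' scaling. With the same total per library it passed upward in each, but the median of all genes rose then too. With all libraries in a single limma model on the authors' scaling, none of the 9 genes passed an adjusted p of 0.05 between genotypes or for a difference in the TAC response, while some other settings called Polr1b or Nop56.

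Depth, the targeted genes and cell markers were examined over the whole table. The libraries held 11707111 to 14609467 reads assigned to genes, and 15.6% to 31.3% of these came from mitochondrial genes, a share that was lower in every TAC library than in every sham library of its genotype. Irs1 averaged 232.7 normalized counts ± 52.6 (SD, n = 6) in WT sham and 25.9 ± 15.1 in IRS1KO sham. Irs2 averaged 217.1 ± 174 in WT sham and 123.4 ± 14.4 in IRS2KO sham, and these ranges overlapped. The summed normalized count of 10 cardiomyocyte markers was 1013045 to 1133396 in WT sham and 594976 to 995141 in WT TAC, and none of these genes was at 0 in any group. Macrophage markers summed to 2977 to 3637 in WT sham and to 7509 to 20468 in WT TAC, and 10 of 10 passed the test upward. Fibroblast markers summed to 26253 to 29840 in WT sham and to 47615 to 83710 in WT TAC. Of these 10, 7 passed upward and 1 downward, beside 28.3% and 26.6% of all tested genes. The median fibroblast sum went from 23429 to 89112 in IRS1KO and from 29062 to 77867 in IRS2KO. Endothelial markers summed to 14106 to 15273 in WT sham and to 9593 to 13678 in WT TAC. Smooth muscle and pericyte markers summed to 18908 to 20762 and to 11238 to 18611. The 8 markers of dividing cells summed to 47.4 to 126 in WT sham and to 465.5 to 2622 in WT TAC. Of these, 8 of 8 passed upward, beside 28.3% of all tested genes. With sham sums this low, such genes may have reached the mean of 10 needed for testing only through their TAC libraries. Their calls are therefore no support for a rise. In bulk tissue, a change in the number of cells of a type and a change in RNA per cell cannot be told apart, and whether these shifts account for any part of the values below was not tested. Of the TAC libraries, 3 lay nearest to sham on the first principal component of all genes: WT TAC replicate 2, IRS2KO TAC replicate 1 and IRS2KO TAC replicate 4. Results that rest on these are given with and without them. Since they were picked for their likeness to sham and none is from IRS1KO, leaving them out favours larger responses in WT and IRS2KO. Since nothing in the labels ties a library to its own mouse, the p-values speak for the spread among libraries, which may be technical.

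The 9 genes lie at separate loci of GRCm38. Myc is at chr15:61985391-61990374 on the plus strand. Ncl is at chr1:86344719-86359400 on the minus strand, and Nop58 is on the same chromosome at chr1:59684971-59719044, plus strand. Npm1 (chr11:33152287-33163206) and Ubtf (chr11:102304560-102319742) are both on the minus strand of chromosome 11. Nop56 (chr2:130274430-130279313) and Polr1b (chr2:129100995-129126594) are both on the plus strand of chromosome 2. Fbl is at chr7:28169710-28179269 and Polr1a at chr6:71909053-71984935, both on the plus strand. Ncl, Nop56 and Nop58 each host small nucleolar RNA genes within their own bounds. Some reads are less certain in 3 of the genes. Transcripts of 4 other genes share at least 300 bases at 95% identity or more with Npm1, and the 3 of them in the table have mean normalized counts that sum to 143.8. Fbl shares 690 bases at 99.6% identity with an annotated transcript of Tulp4, which has a mean of 812.3. It also shares 984 bases at 96.85% identity with Gm5812, which is not in the table. Nop56 has 3 near-copies, of which the 2 in the table sum to 5.14. The sources used here do not give how reads shared with such copies were assigned.

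Promoter windows from RefSeq (GRCm38.p6, 250 bases before to 50 bases after a gene's start) were held for 6 of the 9 genes: Ncl, Nop56, Nop58, Polr1a, Polr1b and Ubtf, the last with 6 windows. Myc, Npm1 and Fbl had no entry. The 250 bases before the start are shown for 4 genes, 3 that rose after TAC in at least 1 genotype and Polr1a, which fell on the authors' scaling, so that their start regions can be set side by side. Each reads 5′ to 3′ on the gene's strand, and capitals mark the GC box (GGGCGG, or CCGCCC on the other strand).
Ncl (chr1:86359456-86359705, minus strand): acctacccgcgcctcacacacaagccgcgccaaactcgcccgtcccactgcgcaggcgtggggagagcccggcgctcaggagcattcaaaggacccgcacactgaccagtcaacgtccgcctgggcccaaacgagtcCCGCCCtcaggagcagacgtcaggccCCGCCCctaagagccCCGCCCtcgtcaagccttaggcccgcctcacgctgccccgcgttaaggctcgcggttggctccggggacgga
Nop56 (chr2:130274162-130274411, plus strand): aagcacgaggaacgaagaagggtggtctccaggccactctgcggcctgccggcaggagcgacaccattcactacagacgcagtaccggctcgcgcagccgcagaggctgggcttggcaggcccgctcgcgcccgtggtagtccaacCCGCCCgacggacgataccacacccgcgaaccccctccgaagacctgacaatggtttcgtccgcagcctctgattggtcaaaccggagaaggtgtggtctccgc
Nop58 (chr1:59684756-59685005, plus strand): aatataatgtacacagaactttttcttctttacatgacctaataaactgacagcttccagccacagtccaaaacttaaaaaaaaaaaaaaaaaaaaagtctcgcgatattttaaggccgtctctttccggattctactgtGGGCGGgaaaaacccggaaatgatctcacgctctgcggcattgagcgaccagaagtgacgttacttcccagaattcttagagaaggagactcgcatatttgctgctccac
Polr1a (chr6:71908803-71909052, plus strand): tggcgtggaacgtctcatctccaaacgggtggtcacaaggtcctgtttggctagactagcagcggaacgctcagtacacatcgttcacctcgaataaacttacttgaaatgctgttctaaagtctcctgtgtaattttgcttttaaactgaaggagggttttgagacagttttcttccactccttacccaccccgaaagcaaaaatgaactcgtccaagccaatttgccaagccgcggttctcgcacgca
The canonical Myc site, the E-box CACGTG, which reads the same on both strands, was in none of the windows of the 6 genes, and 7.15% of the 32851 windows of all genes hold it. Within the full 300-base windows the GC box occurred 3 times for Ncl, once for Nop56, once for Nop58, once for Polr1b and not for Polr1a. Of all windows, 35.7% hold at least 1 GC box. The Ncl window lies just outside the gene's start in the GENCODE annotation, and for Ubtf the window over that start held 1 GC box. A match or its absence describes these letters in this window and says nothing of what binds there.

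Myc was low in every sham heart and high in most TAC hearts. In WT sham the lowest, median and highest libraries had 27.4, 33.2 and 57.1 normalized counts. The 5 WT TAC libraries had 57.6, 99.2, 126.2, 197.6 and 251.3. No WT TAC library overlapped the sham range, although the lowest exceeded the highest sham library by less than 1 count. In IRS1KO the sham libraries ran from 35.7 through a median of 47.6 to 51.8, and the TAC libraries from 125.9 through 211 to 276.8, with a wide gap between the groups. In IRS2KO the sham libraries ran from 28.0 through 45.8 to 53.0. The IRS2KO TAC libraries ran from 51.9 through 182.3 to 333.9, and 5 of 6 stood above every sham library. On the log2 scale the rise was 1.81 (SE 0.36, adjusted p = 0.00012) in WT, 2.16 (SE 0.34, adjusted p = 2.9e-06) in IRS1KO and 1.70 (SE 0.34, adjusted p = 8.8e-05) in IRS2KO. These values rest on few reads, 25 to 51 per library in WT sham and 60 to 246 in WT TAC. The spread among TAC hearts was large: the SD was 77.7 in WT, 53.0 in IRS1KO and 109 in IRS2KO. Without the 3 TAC libraries nearest to sham, which had 57.6, 56.8 and 51.9 normalized counts of Myc, the log2 rise was 2.10 in WT and 2.38 in IRS2KO.

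**Figure D1:**
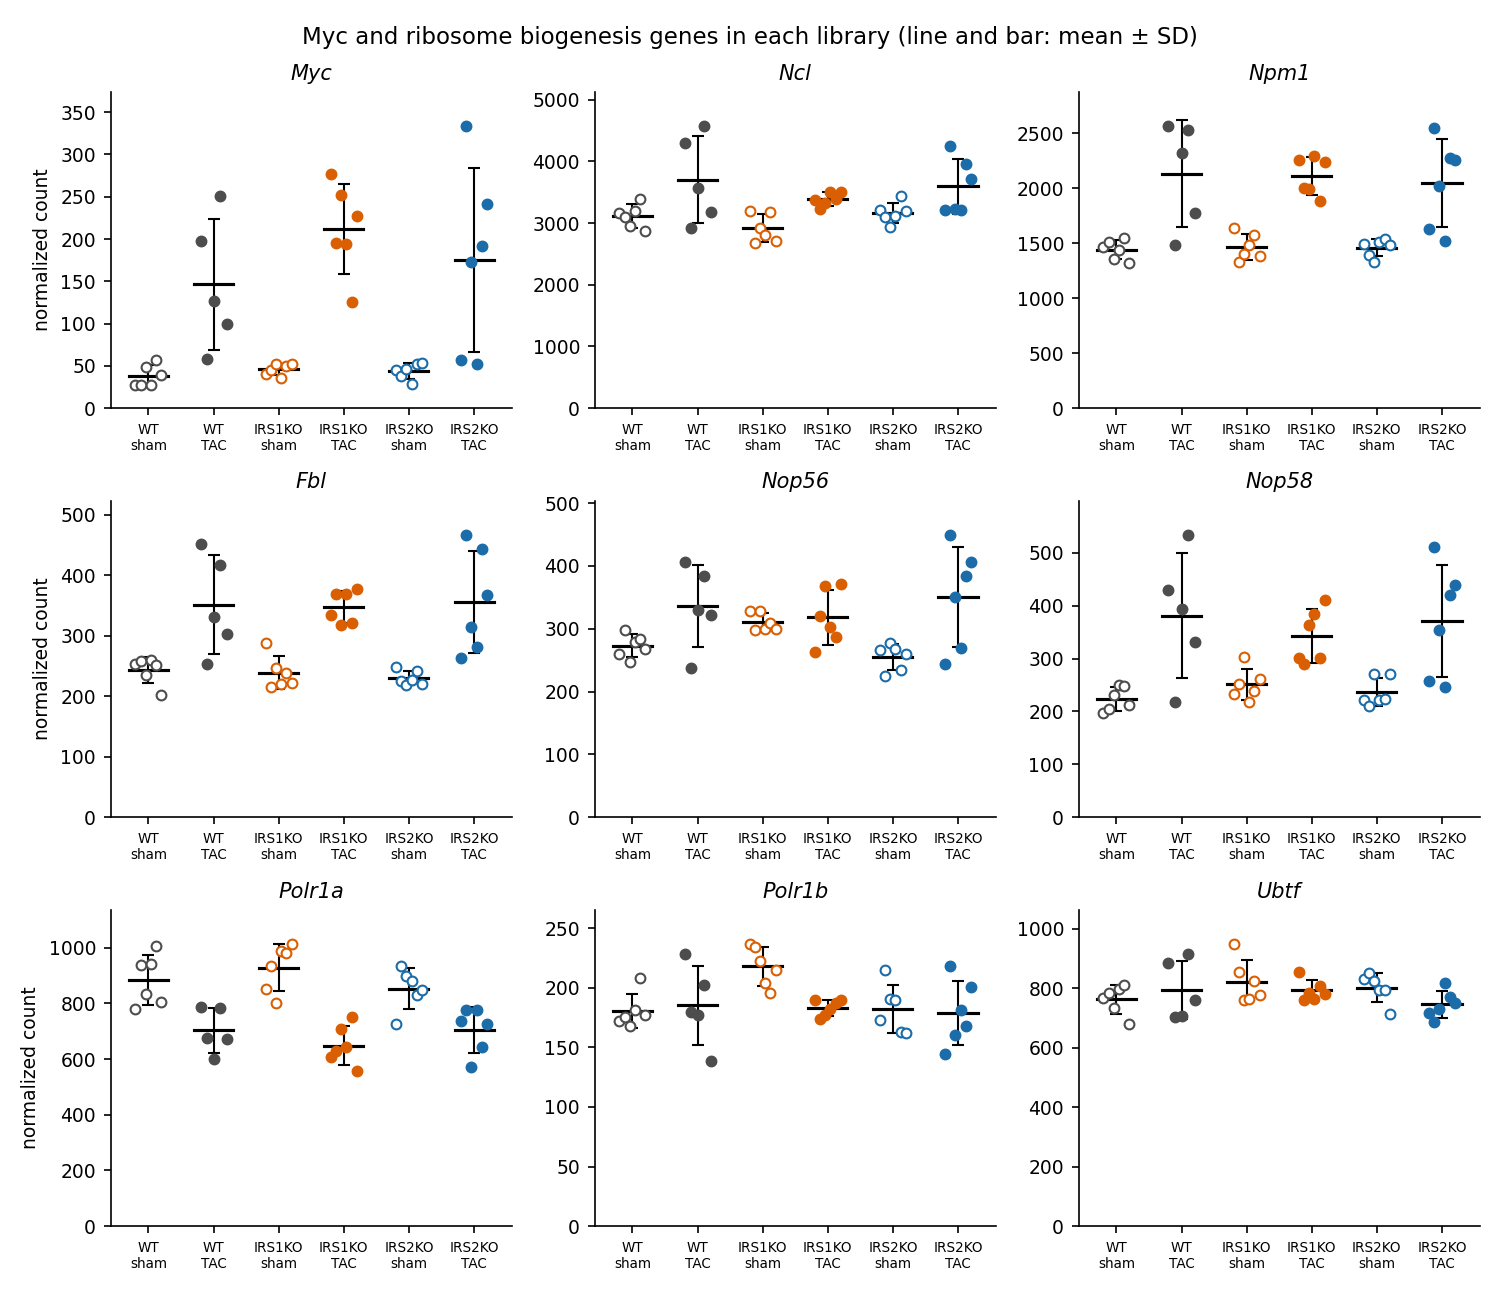
Normalized counts of the 9 genes in each library, by group (points: libraries, open for sham and filled for TAC; line and bar: mean ± SD; each y axis starts at 0). Myc in WT runs from 27.4 to 57.1 in sham and from 57.6 to 251.3 after TAC, and Polr1a in IRS1KO is lower in all 6 TAC libraries than in every sham library.

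The share of all tested genes called higher after TAC was 28.3% in WT, 32.4% in IRS1KO and 31.3% in IRS2KO, and the share called lower was 26.6%, 31.7% and 31.1%. Against that background, 5 of the 9 genes rose and 1 fell in WT, 5 rose and 2 fell in IRS1KO, and 5 rose and 1 fell in IRS2KO. The median log2 change of the 9 was 0.28 in WT, 0.22 in IRS1KO and 0.43 in IRS2KO, beside a median over all tested genes of -0.01 in each. Without the 3 TAC libraries nearest to sham, 6 of the 9 rose and 1 fell in both WT and IRS2KO. These 3 were picked for their likeness to sham. The share of all tested genes that rose was higher then too, as given with the gene lists below.

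The nucleolar proteins Ncl and Npm1 were the most abundant of the 9 by normalized count. Npm1 had 1319, 1455 and 1550 normalized counts as the lowest, median and highest of WT sham, and 1479, 1772, 2316, 2533 and 2567 after TAC, where 4 of 5 libraries stood above the sham range. In IRS1KO it went from 1332 to 1636 in sham to 1883 to 2289 after TAC, with no overlap. In IRS2KO it went from 1331 to 1539 in sham to 1522 to 2550 after TAC, with 5 of 6 above the sham range. The log2 rise of Npm1 was 0.54 (SE 0.12, adjusted p = 0.00033) in WT, 0.52 (SE 0.11, adjusted p = 0.00014) in IRS1KO and 0.46 (SE 0.11, adjusted p = 0.00058) in IRS2KO. The change of Ncl was smaller. Ncl averaged 3113 ± 189 in WT sham (SD, n = 6) and 3706 ± 711 after TAC (n = 5), a log2 rise of 0.23 (SE 0.09, adjusted p = 0.029). This call rested on single libraries, since the adjusted p was 0.156 without WT TAC replicate 5, 0.121 without WT TAC replicate 1, 0.0629 without WT sham replicate 6 and 0.0558 without WT sham replicate 3. With limma fitted to the 2 contrasted groups alone it was lost too (adjusted p = 0.089). In IRS1KO the log2 rise of Ncl was 0.22 (adjusted p = 0.026), with each of the 6 TAC libraries (3223 to 3507) above every sham library (2683 to 3201), and the adjusted p was 0.0588 and 0.0569 without IRS1KO sham replicates 2 and 6. In IRS2KO the log2 difference was 0.18 (adjusted p = 0.072), which missed the threshold, and it passed at 0.25 (adjusted p = 0.0085) without the TAC libraries nearest to sham. It also passed in limma with library weights (adjusted p = 0.020) or quantile normalization (adjusted p = 0.0039), and in DESeq2 (adjusted p = 0.045). With the same total per library, where the median of all genes rose too, it passed as well. Other settings left it uncalled.

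Of the 3 genes followed here for core proteins of the box C/D particles, Fbl and Nop58 rose in each genotype. Nop56 rose in IRS2KO, where all 3 passed. No test compared these genes with each other. Fbl ran from 202.6 through 253 to 259.3 normalized counts in WT sham and stood at 253.4, 302.9, 330.8, 416.8 and 452.6 after TAC. Its log2 rise was 0.50 (SE 0.13, adjusted p = 0.0014) in WT, 0.55 (SE 0.12, adjusted p = 0.00022) in IRS1KO and 0.60 (SE 0.12, adjusted p = 7.9e-05) in IRS2KO. In both knockouts the lowest TAC library (318.3 in IRS1KO, 263.6 in IRS2KO) stood above the highest sham library (288.7 and 248.5). Nop58 ran from 197.1 through 220.7 to 250.9 in WT sham and stood at 216.9, 331, 393.9, 430.1 and 534.3 after TAC. Its log2 rise was 0.71 (SE 0.17, adjusted p = 0.00078) in WT, 0.44 (SE 0.16, adjusted p = 0.018) in IRS1KO and 0.60 (SE 0.16, adjusted p = 0.0016) in IRS2KO. The TAC and sham ranges of Nop58 overlapped in all 3 genotypes, with 4 of 5, 3 of 6 and 4 of 6 TAC libraries above every sham library.

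Nop56, the partner of Nop58 in the same particle, passed the test in IRS2KO and in no other genotype on the authors' scaling. Its IRS2KO sham libraries ran from 225.5 through 263.5 to 277.5 normalized counts and its IRS2KO TAC libraries from 243.9 through 367.5 to 449.6, a log2 rise of 0.43 (SE 0.12, adjusted p = 0.0024). In IRS1KO the sham libraries ran from 298.3 through 304.1 to 328.5 and the TAC libraries from 262.3 through 311.6 to 370.7, a log2 difference of 0.03 (95% interval -0.21 to 0.27, adjusted p = 0.86). In WT the sham libraries ran from 247.2 to 297.6, and the TAC libraries stood at 237.1, 322.2, 329.9, 384.1 and 406.8, a log2 difference of 0.28 (adjusted p = 0.057). The low library was WT TAC replicate 2, and without it the log2 rise in WT was 0.40 (adjusted p = 0.0054). The count tests on the recovered reads called Nop56 in WT (adjusted p = 0.038 in both edgeR and DESeq2). The response of Nop56 in IRS1KO minus that in IRS2KO was -0.40 on the log2 scale (95% interval -0.74 to -0.06, unadjusted p = 0.023, adjusted p = 0.33), so the difference was not called over all genes. It was called without the 3 TAC libraries nearest to sham. Among these were IRS2KO TAC replicates 1 and 4, the lowest of their group for Nop56 (243.9 and 269.8 normalized counts). That call therefore rests on the choice of libraries and is no support for a difference.

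**Figure D2:**
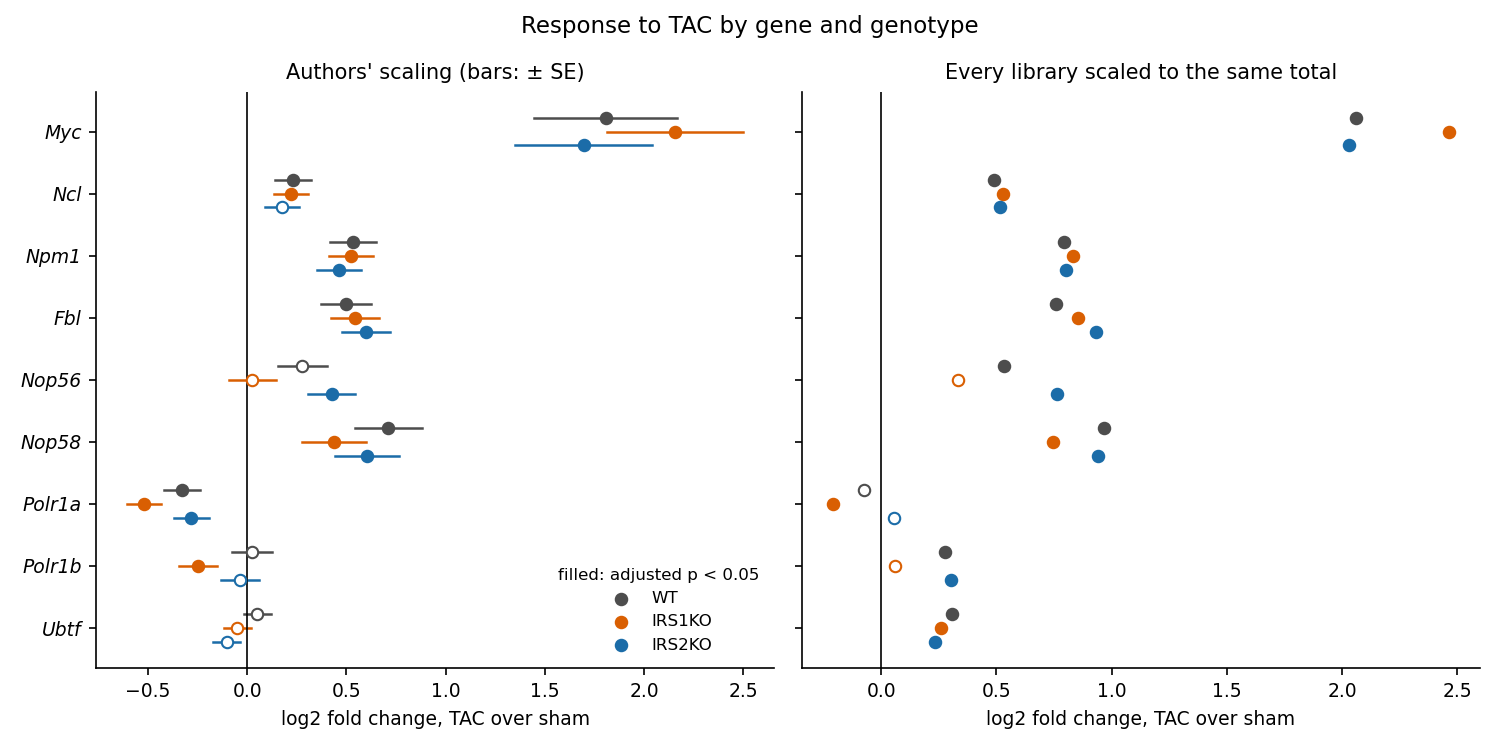
Log2 fold change of TAC over sham for each gene and genotype, with the authors' scaling at left (bars: ± SE) and with all libraries brought to one total at right; filled points have an adjusted p under 0.05 in limma. Myc, Npm1, Fbl and Nop58 are filled and above 0 in both panels, while Polr1a in IRS2KO lies at -0.28 at left and 0.06 at right.

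Polr1a, the largest subunit of RNA polymerase I, ran from 780.8 through 886.3 to 1005 normalized counts in WT sham and stood at 600.2, 673.4, 674.8, 784.6 and 786.7 after TAC. In IRS1KO every TAC library (556.5 to 749.4) was below every sham library (800.8 to 1014). In IRS2KO the sham libraries ran from 725.7 to 936 and the TAC libraries from 570.4 to 775.9, with 3 of 6 below the sham range. The log2 fall was -0.33 (SE 0.09, adjusted p = 0.0030) in WT, -0.52 (SE 0.09, adjusted p = 5.8e-06) in IRS1KO and -0.28 (SE 0.09, adjusted p = 0.0057) in IRS2KO. This direction depends on the scaling. Under the same-total scaling, the median log2 change of all tested genes after TAC was 0.24 in WT, 0.30 in IRS1KO and 0.33 in IRS2KO, and Polr1a stood at -0.07 (adjusted p = 0.49), -0.21 and 0.06, below that median in each genotype.

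Polr1b, the second subunit, passed the test in IRS1KO alone on the authors' scaling. Its normalized counts ran from 167.8 through 176.3 to 208.2 in WT sham, from 195.4 through 218.9 to 237 in IRS1KO sham and from 162.5 through 181.6 to 214.9 in IRS2KO sham, ranges that overlap. After TAC the group means were 185.2 ± 33.1 in WT (SD, n = 5), 183.3 ± 6.81 in IRS1KO (n = 6) and 178.9 ± 27.0 in IRS2KO (n = 6). In IRS1KO its log2 change was -0.25 (SE 0.10, adjusted p = 0.024), with all 6 TAC libraries below every sham library. That call was lost without IRS1KO sham replicate 1 (adjusted p = 0.0536) or 2 (adjusted p = 0.0519). With the same total per library its change was 0.06 in IRS1KO and, past the threshold, 0.28 in WT and 0.30 in IRS2KO. The difference of its response between IRS1KO and WT was -0.27 (95% interval -0.55 to 0.01, adjusted p = 0.58). Ubtf had group means between 745.6 and 821.3 normalized counts. Its log2 difference after TAC was 0.05 (95% interval -0.09 to 0.19) in WT, -0.05 (-0.18 to 0.09) in IRS1KO and -0.10 (-0.24 to 0.03) in IRS2KO. With the same total per library Ubtf was at 0.31, 0.26 and 0.23, past the threshold in each. The median of all tested genes was then 0.24 in WT, 0.30 in IRS1KO and 0.33 in IRS2KO. Ubtf lay above that median in WT alone, and so did Polr1b.

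Between genotypes none of the 9 genes was called in the model of all 6 groups. The share of all tested genes called was 4.65% for IRS1KO against WT in sham, 0.0% for IRS2KO against WT in sham, 8.3% for IRS1KO against IRS2KO in sham, 4.7% for IRS1KO against WT after TAC, 0.0% for IRS2KO against WT after TAC and 2.36% for IRS1KO against IRS2KO after TAC. For the difference of the TAC response it was 0.11% for IRS1KO minus WT, 0.0% for IRS2KO minus WT and 0.409% for IRS1KO minus IRS2KO. In these 9 comparisons that limma model, edgeR and DESeq2 each called 0 of the 9 genes. Other limma settings made calls: with only the contrasted groups, or with library weights, Polr1b was called for IRS1KO against WT in sham, and Polr1b and Nop56 for IRS1KO against IRS2KO in sham. With the same total per library Polr1b was called for IRS1KO against IRS2KO in sham. Without the 3 TAC libraries nearest to sham, Nop56 was called for IRS1KO against IRS2KO in sham, after TAC and for the difference of response. The calls after TAC and for the response rest on a choice of libraries by likeness to sham and are no support for a difference. At an unadjusted p under 0.05 in limma there was 1 for IRS1KO against WT in sham (Polr1b, 0.27 higher on the log2 scale, adjusted p = 0.10), 2 for IRS1KO against IRS2KO in sham (Polr1b, 0.26 higher, and Nop56, 0.28 higher) and 1 for the difference of response IRS1KO minus IRS2KO (Nop56). The comparisons against a shared group are not independent, since they use the same libraries. For Myc the log2 difference of the TAC response was 0.35 (95% interval -0.66 to 1.36) for IRS1KO minus WT, -0.11 (-1.13 to 0.90) for IRS2KO minus WT and 0.46 (-0.53 to 1.45) for IRS1KO minus IRS2KO, intervals that span both directions.

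Levels of the 9 genes can be compared per length. In WT sham, Npm1 had 882 normalized counts per kb of transcript ± 54.3 (SD, n = 6), Ncl 380 ± 23.0, Fbl 204 ± 18.4, Ubtf 162 ± 10.2, Nop56 145 ± 9.66, Polr1a 95.9 ± 9.76, Polr1b 45.1 ± 3.61, Nop58 23.5 ± 2.42 and Myc 16.2 ± 5.46. Library ranges overlapped between Fbl and Ubtf, between Ubtf and Nop56 and between Nop58 and Myc, and the other neighbours in this order did not overlap. The lengths are of the longest coding transcript with a RefSeq match, which for Ncl (8202 bases) and Nop58 (9507 bases) is far longer than for Nop56 (1877 bases), so the places of Ncl and Nop58 depend on the model taken. After TAC, Myc averaged 62.6 ± 33.2 normalized counts per kb in WT (n = 5), 90.5 ± 22.7 in IRS1KO and 74.8 ± 46.5 in IRS2KO.

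Taken over all genotypes together, TAC libraries with more Myc also had more Npm1, Nop58, Nop56, Fbl and Ncl. Within IRS1KO TAC alone none of these relations passed. Whether an r of this size with Myc is common among all genes in these libraries was not tested. The values therefore do not set these genes apart from other genes that change with TAC. Over the 17 TAC libraries, taken as deviations from their group means on the log2 scale, Pearson's r between Myc and Npm1 was 0.92 (permutation p = 3e-05, adjusted p = 0.00048, Spearman's rho 0.89). It was 0.90 for Nop58 (adjusted permutation p = 0.00088, rho 0.85), 0.87 for Nop56 (adjusted permutation p = 0.0020, rho 0.84), 0.84 for Fbl (adjusted permutation p = 0.0046, rho 0.78) and 0.79 for Ncl (adjusted permutation p = 0.0046, rho 0.82). The polymerase genes did not pass: r was -0.03 for Polr1a (adjusted permutation p = 0.93, rho 0.09), 0.56 for Polr1b (adjusted permutation p = 0.15, rho 0.56) and 0.23 for Ubtf (adjusted permutation p = 0.78, rho 0.33). The permutations were two-sided, within groups, and adjusted over 16 relations, 8 in TAC and 8 in sham. Without the 2 libraries farthest from the median of Myc, r was 0.81 for Ncl, 0.89 for Npm1, 0.79 for Fbl, 0.81 for Nop56 and 0.86 for Nop58.

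Within single genotypes the number of libraries was small, and the difference in r between genotypes was not tested. Within the 6 IRS2KO TAC libraries r was 0.99 for Npm1, 0.98 for Nop56 and 0.99 for Nop58 (exact permutation test, two-sided, adjusted p = 0.015 for each over 16 tests within IRS1KO and IRS2KO). Within the 6 IRS1KO TAC libraries r was 0.60 for Npm1, 0.21 for Nop56, 0.29 for Nop58, 0.10 for Fbl and 0.0019 for Ncl, with adjusted exact p of at least 0.45. WT TAC, with 5 libraries, was below the 6 taken as the least for an r, so its values are given instead. In order of rising Myc (57.6, 99.2, 126.2, 197.6 and 251.3 normalized counts), these libraries had 216.9, 331, 393.9, 430.1 and 534.3 of Nop58, the same order. Ncl followed that order too, and Npm1, Fbl and Nop56 did so except that the library with 197.6 of Myc stood above the one with 251.3. Myc spanned 125.9 to 276.8 normalized counts in IRS1KO TAC against 51.9 to 333.9 in IRS2KO TAC. Without the 3 TAC libraries nearest to sham, r over the remaining libraries was 0.79 for Npm1 (adjusted permutation p = 0.040), and the relations with Nop58 (0.72), Ncl (0.74), Fbl (0.63) and Nop56 (0.58) no longer passed. In the 18 sham libraries no r passed after adjustment. The highest was that of Nop58, with r = 0.52 (adjusted permutation p = 0.094) and rho = 0.62 (adjusted permutation p = 0.025).

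**Figure D3:**
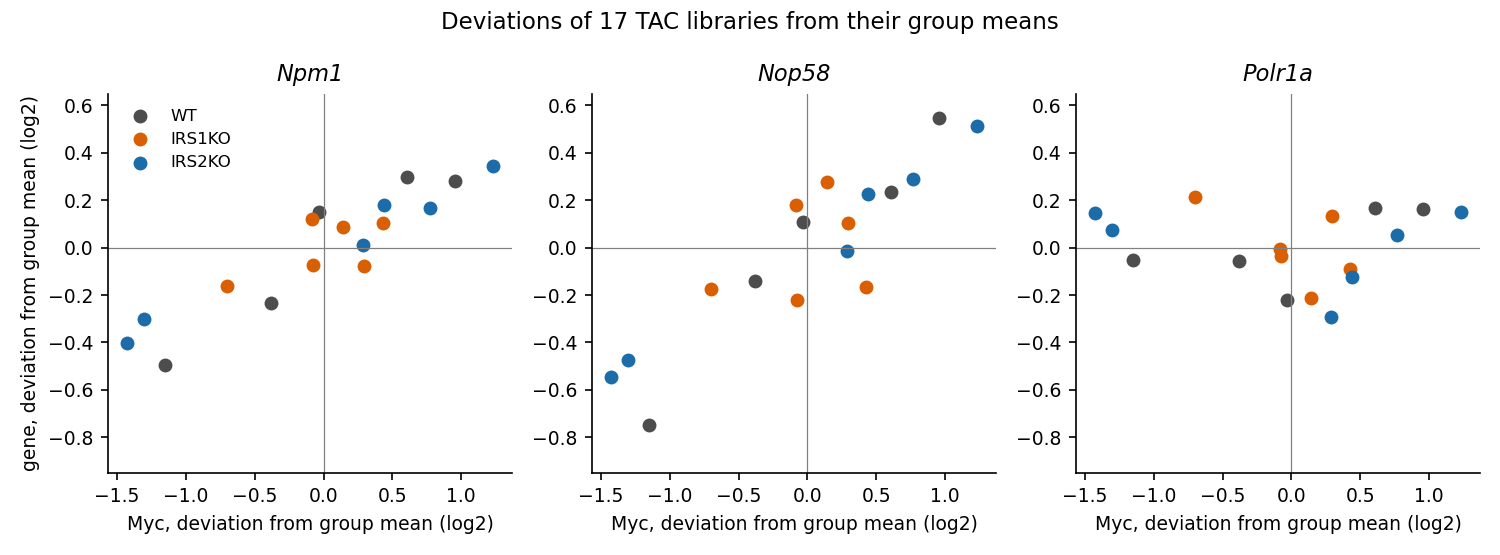
Deviation of Npm1, Nop58 and Polr1a from the group mean against that of Myc, on the log2 scale, in the 17 TAC libraries (points: libraries, coloured by genotype). Npm1 and Nop58 rise with Myc (r = 0.92 and 0.90) and Polr1a does not (r = -0.03); the 3 points at the far left are the libraries nearest to sham.

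Marker sums stood nearer to sham in the TAC libraries with the least Myc, but they did not follow Myc throughout. The 3 TAC libraries with the least Myc had summed counts of the dividing-cell markers of 465.5, 1343 and 847.9, beside a median of 1873 in WT TAC and 2665 in IRS2KO TAC. Their cardiomyocyte marker sums, 995141, 888823 and 1021782, were the highest of the TAC libraries, and their macrophage marker sums were 7509, 9389 and 6017. In IRS1KO TAC the library with the least Myc (125.9) had the lowest dividing-cell sum of its group, 1690, and a cardiomyocyte sum of 842604. The IRS1KO TAC libraries with the most Myc (276.8 and 251.6) had dividing-cell sums of 2073 and 2199, below the 2897, 2965 and 3240 of the 3 libraries with 195.1, 193.6 and 227 of Myc. In WT TAC the library with the most Myc (251.3) had a dividing-cell sum of 1731, and the one with 126.2 had 2622, the highest of its group. The part of these shifts in the relations of Myc was not tested.

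**Figure D4:**
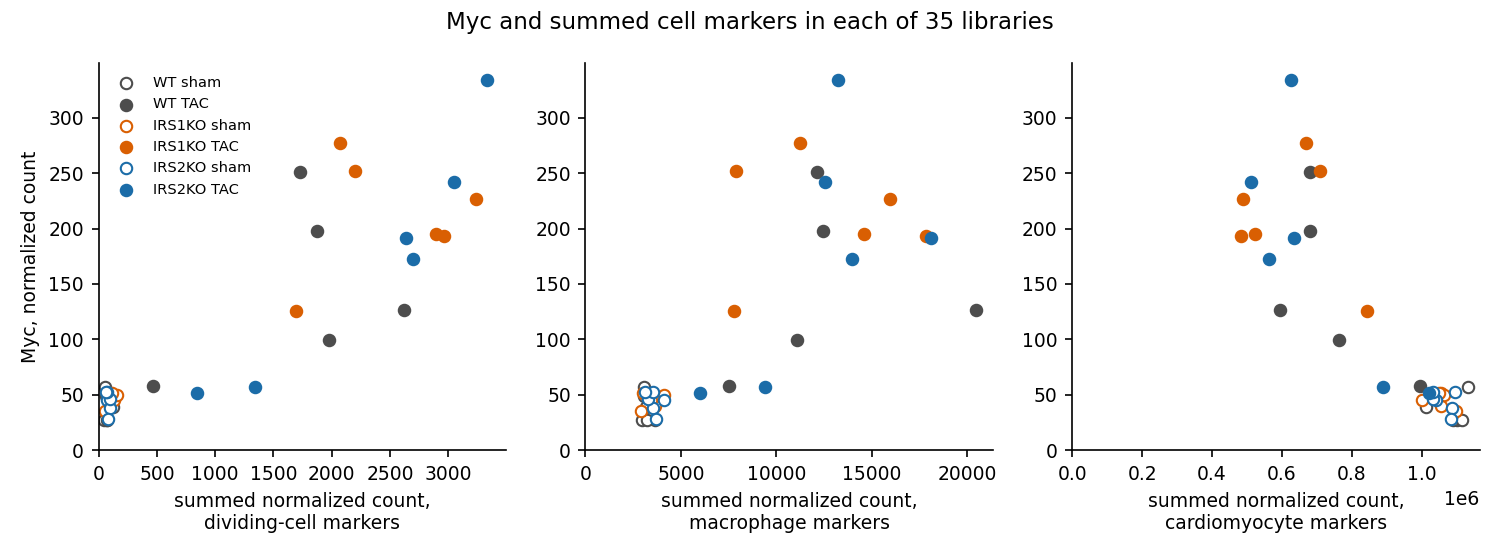
Normalized count of Myc against the summed normalized counts of 8 dividing-cell, 10 macrophage and 10 cardiomyocyte markers in each of the 35 libraries (open: sham; filled: TAC). Sham libraries sit together at low Myc, and the 3 TAC libraries between 51.9 and 57.6 lie nearest to them in dividing-cell and cardiomyocyte markers.

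Beyond the 9 genes, 7 lists held 160 other genes of the Myc network and of ribosome biogenesis, of which 156 could be tested. After TAC 50 rose and 16 fell in WT, 41 rose and 27 fell in IRS1KO, and 54 rose and 23 fell in IRS2KO, with median log2 changes of 0.15, 0.07 and 0.125. The share that rose was 32.1% in WT beside 28.3% of all genes, 26.3% in IRS1KO beside 32.4%, and 34.6% in IRS2KO beside 31.3%, so it was near or below that of all genes. The share that fell was 10.3%, 17.3% and 14.7%, beside 26.6%, 31.7% and 31.1%. With the same total per library 106 rose and 4 fell in WT, 101 and 7 in IRS1KO, and 121 and 6 in IRS2KO. The share that rose was then 67.9%, 64.7% and 77.6%, beside 45.4%, 52.4% and 54.3% of all genes. Of all 13695 tested genes, 1583, 2164 and 1890 fell under that scaling. The median of the lists in WT was then 0.41, beside 0.24 for all genes. After quantile normalization 38 rose and 20 fell in WT (24.4% rose, beside 24.2% of all genes). Without the 3 TAC libraries nearest to sham, 68 rose and 18 fell in WT and 71 rose and 21 fell in IRS2KO. The share that rose was then 43.6% and 45.5%, beside 30.5% and 34.2% of all genes.

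Most of the called genes of the Myc network fell on the authors' scaling. Of 14 genes tested, 3 rose and 6 fell in WT, 2 rose and 4 fell in IRS1KO, and 3 rose and 9 fell in IRS2KO. Over all tested genes 28.3%, 32.4% and 31.3% rose, and 26.6%, 31.7% and 31.1% fell. Under the same-total scaling the counts for this list were 4 and 1, 4 and 3, and 5 and 5. Of all 13695 tested genes, 6221, 7181 and 7438 then rose, and 1583, 2164 and 1890 fell. Mxi1, which competes with Myc for Max, went from 435.3 ± 43.8 normalized counts in WT sham to 280.4 ± 61.4 after TAC, a 1.55-fold fall (log2 change -0.65, adjusted p = 9.2e-05), with every TAC library below every sham library. The fall was 1.61-fold in IRS1KO and 1.98-fold in IRS2KO, and it passed in each genotype with the same total too. Mlxipl (ChREBP, a glucose-responsive factor that pairs with Mlx) fell 1.59-fold in WT, 2.97-fold in IRS1KO and 1.94-fold in IRS2KO, while Mlx itself rose 1.26-fold, 1.29-fold and 1.33-fold. The fall of Mlxipl missed the threshold in WT under that scaling (adjusted p = 0.095). Pim1, a kinase that acts with Myc, rose 1.67-fold in WT (adjusted p = 0.0019) and did not pass in IRS1KO (adjusted p = 0.39) or IRS2KO (adjusted p = 0.18). Max, the obligate partner, did not pass in WT (log2 -0.17, adjusted p = 0.21) or IRS1KO (-0.12, adjusted p = 0.34) and fell in IRS2KO (-0.58, adjusted p = 3.1e-05). Mxd3, another Max partner, is described here after its values were seen. It had 0 to 2.19 normalized counts in WT sham and 7.68 to 46.9 in WT TAC, 0 to 3.39 and 22.8 to 52.0 in IRS1KO, and 0 to 2.41 and 16.3 to 83.3 in IRS2KO. It reached the mean of 10 needed for testing only through its TAC libraries, so its place among the rises of this list is no support for one.

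Other textbook targets of Myc were split. Of 14 tested, 7 rose and 4 fell in WT, 7 rose and 4 fell in IRS1KO, and 9 rose and 4 fell in IRS2KO. Among all tested genes 28.3%, 32.4% and 31.3% rose, and 26.6%, 31.7% and 31.1% fell. Nme1 (a nucleoside diphosphate kinase) rose 2.09-fold in WT, from 114.5 ± 15.1 to 239.7 ± 39.2 normalized counts, 1.97-fold in IRS1KO and 1.80-fold in IRS2KO. Eif4a1, the helicase of translation initiation, rose 1.88-fold, 1.97-fold and 1.94-fold, and Odc1, the first enzyme of polyamine synthesis, rose 1.80-fold, 1.98-fold and 2.02-fold. In these 3 genes each TAC library stood above every sham library of its genotype. Ppat, the first enzyme of purine synthesis, fell 1.72-fold in WT, 1.59-fold in IRS1KO and 1.33-fold in IRS2KO. Hspd1, a mitochondrial chaperonin, fell 1.33-fold, 1.49-fold and 1.34-fold. Ppat (adjusted p = 0.40) and Hspd1 (adjusted p = 0.16) no longer passed in IRS2KO under the same-total scaling.

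Few of the other polymerase I genes passed the test on the authors' scaling. Of 12 tested, 1 rose and 2 fell in WT, 0 rose and 1 fell in IRS1KO, and 1 rose and 1 fell in IRS2KO, with medians of -0.03, -0.02 and -0.03 on the log2 scale. Among all tested genes 28.3%, 32.4% and 31.3% rose, and 26.6%, 31.7% and 31.1% fell. Under the same-total scaling 6 of the 12 rose and 1 fell in WT, and their median was 0.23, beside 0.24 for all genes. Of all 13695 tested genes, 6221 then rose and 1583 fell in WT. Taf1a, a subunit of the SL1 initiation factor, went from 183.2 ± 22.2 to 103.5 ± 10.8 normalized counts in WT, a 1.77-fold fall, and fell 1.98-fold in IRS1KO and 2.10-fold in IRS2KO, with every TAC library below every sham library. Its fall passed in each genotype with the same total as well (log2 -0.56, -0.67 and -0.74). Polr1e, a polymerase subunit, rose 1.19-fold in WT (adjusted p = 0.035) and 1.29-fold in IRS2KO (adjusted p = 0.0023), while in IRS1KO it averaged 308.4 ± 29.8 in sham and 308.6 ± 55.5 after TAC (adjusted p = 0.92). Ttf1, the terminator-binding factor, fell 1.18-fold in WT (adjusted p = 0.026) and did not pass in the knockouts, and its WT change was 0.01 with the same total.

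The processing and assembly factors of both subunits had more rises than falls in WT. Of 40 small subunit genes tested, 16 rose and 0 fell in WT, 13 rose and 3 fell in IRS1KO, and 17 rose and 1 fell in IRS2KO. These rises were 40% of the list in WT, 32.5% in IRS1KO and 42.5% in IRS2KO, beside 28.3%, 32.4% and 31.3% of all genes. Falls over all tested genes were 26.6%, 31.7% and 31.1%. Utp18 rose 1.70-fold in WT, from 101.4 ± 18.1 to 172.4 ± 39.5 normalized counts, 1.64-fold in IRS1KO and 1.55-fold in IRS2KO. Heatr1, which also acts in polymerase I transcription, rose 1.53-fold, 1.44-fold and 1.60-fold, and the helicase Ddx21 rose 1.40-fold, 1.31-fold and 1.33-fold. Of 51 genes of 60S assembly, 17 rose and 4 fell in WT, 14 rose and 9 fell in IRS1KO, and 17 rose and 7 fell in IRS2KO. The rises were 33.3%, 27.5% and 33.3% of that list, near the shares of all genes in WT and IRS2KO and below that in IRS1KO. Eif6, which keeps the new 60S subunit from joining early, rose 1.77-fold, 1.95-fold and 2.15-fold in WT, IRS1KO and IRS2KO. Nop16 rose 1.52-fold, 1.56-fold and 1.66-fold, and Bop1 rose 1.49-fold, 1.45-fold and 1.63-fold. Nop53 fell 1.16-fold, 1.25-fold and 1.24-fold, and Las1l fell 1.14-fold in WT and 1.19-fold in IRS1KO but missed the threshold in IRS2KO (adjusted p = 0.17). With the same total per library no gene of these 2 lists fell in any genotype, Nop53 and Las1l included. Falls were then fewer over all 13695 tested genes too, at 1583 in WT, 2164 in IRS1KO and 1890 in IRS2KO.

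The other small nucleolar particle genes gave 3 rises and 0 falls among 14 in WT, 2 and 3 in IRS1KO, and 4 and 1 in IRS2KO. Rises were no more frequent there than over all tested genes (28.3%, 32.4% and 31.3%). Falls over all tested genes were 26.6%, 31.7% and 31.1%. Nhp2, a core protein of the H/ACA particles that guide pseudouridylation, rose 1.93-fold in WT, from 126 ± 14.5 to 243.2 ± 78.0 normalized counts, 1.94-fold in IRS1KO and 2.10-fold in IRS2KO. Ruvbl1, an assembly factor, rose 1.30-fold, 1.27-fold and 1.24-fold. Gar1, of the same particle as Nhp2, rose 1.40-fold in WT (adjusted p = 0.031) and did not pass in IRS1KO (adjusted p = 0.29) or IRS2KO (adjusted p = 0.12). Of 11 exosome genes, 3 rose and 0 fell in WT, 3 rose and 3 fell in IRS1KO, and 3 rose and 0 fell in IRS2KO. These rises too were no more frequent than over all tested genes. Exosc2 rose 1.52-fold, 1.26-fold and 1.52-fold, Dis3, the nuclease, rose 1.27-fold, 1.35-fold and 1.31-fold, and Exosc8 rose 1.27-fold in WT and 1.22-fold in IRS2KO and missed the threshold in IRS1KO (1.16-fold, adjusted p = 0.080).

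**Figure D5:**
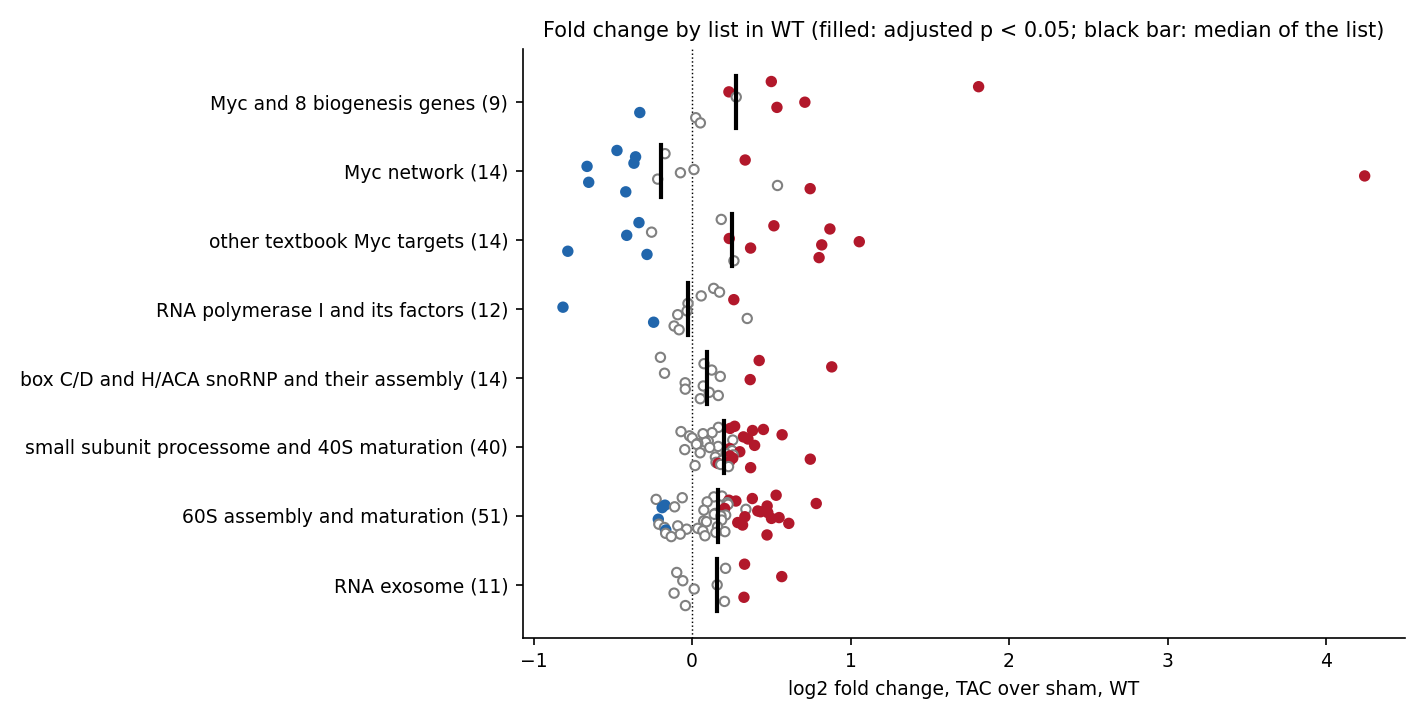
Log2 fold change of TAC over sham in WT for Myc and 8 biogenesis genes and for the genes of 7 lists (points: genes, filled where the adjusted p is under 0.05, red higher and blue lower; black bar: median; numbers in brackets: genes tested). The small subunit list has 16 filled red points and 0 blue on the authors' scaling, and Mxd3 is the point beyond 4 in the Myc network.

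Between genotypes few genes of the 7 lists were called. Over all tested genes, 4.65% were called for IRS1KO against WT in sham and 4.7% after TAC. In sham, 8.3% were called for IRS1KO against IRS2KO. The share of the lists was lower in each of these. For IRS1KO against WT in sham, 1 of 156 was higher (Polr1e, 0.42 on the log2 scale, adjusted p = 0.0097) and 2 were lower: Mlxip (-0.35, adjusted p = 0.044) and Mtrex, a helicase of the nuclear exosome (-0.24, adjusted p = 0.012). After TAC 2 were lower in IRS1KO than in WT, Taf1a (-0.47, adjusted p = 0.0055) and Wdr18 (-0.30, adjusted p = 0.021). For IRS1KO against IRS2KO in sham, 3 were higher (Polr1e, 0.47; Nat10, 0.26; Rcl1, 0.43) and 4 were lower: Taf1a (-0.40), Mlxip (-0.37), Mtrex (-0.29) and Ccnd2 (-0.41). Polr1e averaged 308.4 ± 29.8 normalized counts in IRS1KO sham, 231.9 ± 32.7 in WT sham and 222.3 ± 19.3 in IRS2KO sham. These genes were named here after their values were seen. In the other 6 comparisons none of the 156 was called, beside 0.0% to 2.36% of all tested genes.

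The genes whose pattern over the 35 libraries was most like each of the 9 were found by the root mean square difference of log2 values centred on each gene's mean, among 10785 genes. Nearest to Myc were Itga5 (0.37), an integrin subunit, Pak6 (0.38) and Sbno2 (0.39), beside a root mean square of 1.13 for Myc about its own mean. Itga5 averaged 773.5 ± 60.9 normalized counts in WT sham and 2536 ± 777 in WT TAC. Npm1 and Fbl had the same nearest gene, the ribosomal protein gene Rpl4 (0.085 for each), which averaged 5155 ± 365 in WT sham and 7119 ± 1091 in WT TAC. Rps18 and Rpl13, 2 further ribosomal protein genes, were next for Fbl. Nearest to Ncl were Eif4h, Nsun2 and Arf1, to Nop56 Ftsj3, E2f4 and Rela, and to Nop58 Anp32b, Fem1b and Gnl3. Nearest to Polr1a were Polg, Drosha and Pabpc4, to Polr1b Usb1, Reps1 and Irf2bp1, and to Ubtf Blmh, Smarce1 and Sdf4. For Polr1b (0.13 beside 0.18) and Ubtf (0.086 beside 0.11) the nearest gene differed by nearly as much as the member varied about its own mean, so these neighbours describe little.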

How the data were processed

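Stranded poly(A) libraries were made with a TruSeq kit from total RNA isolated with mirVana reagents, per the labels' protocols. The deposited values are a signal in normalized counts, per the file headers. The submitters' processing notes name GRCm38, HISAT2 2.0.6, HTSeq 0.7.1 and DESeq2 and give them no role. In each library 100% of the values were whole multiples of 1 value within a tolerance of 0.001, so the authors' reads per gene were recovered. No 2 libraries of a group agreed within sampling noise (lowest chi-square per degree of freedom 2.42 over 85 pairs). Symbols and coordinates came from GENCODE release M21 for GRCm38.

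The test was limma 3.58.1 (R 4.3.3, trend and robust) on log2(value + 1), two-sided, for the 13695 genes with a mean of at least 10, in a single model of 6 groups. Adjustment was Benjamini-Hochberg, over all genes within each of 12 contrasts, with a threshold of 0.05. Log2 changes refer to log2(value + 1) and understate those of low genes; folds are ratios of group means. Relations used 100000 permutations within groups. Other settings tried were a pseudocount of 0.5 or 5; no filter or a minimum mean of 50; scaling to an equal total in each library ("same total") or by quantiles; a fit to the contrasted groups alone; arrayWeights; the replicate block; the recovered reads in edgeR 4.0.16 and in DESeq2 1.42.0; and leaving out single libraries or the 3 TAC libraries nearest to sham. The steps were tested on simulated data. From each list the 3 largest rises and the 2 largest falls in WT with a group mean of at least 100 were named, and for each member the 3 most similar genes with a mean of at least 50. The members, lists and alternatives were chosen with earlier results of these data known.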

Additional observations from a re-analysis of the deposited data

Results flagged for a closer look

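Among the 54 combinations of gene and group, 1 library stood apart by Dixon's test at the 95% level, which chance alone gives for about 1 in 20 groups. It was Polr1b in WT sham replicate 5, at 208.2 normalized counts, where the other 5 WT sham libraries lay between 167.8 and 181.3.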

How the results depend on the processing

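For TAC against sham, the calls of Myc, Npm1, Fbl and Nop58 kept their direction and their side of the threshold in 71 of 71 alternatives for each gene. Ncl kept its side in 56 of 71, gained a call in 8 and lost one in 7. With the same total per library 5 log2 changes turned sign: Polr1b (0.060) and Ubtf (0.26) in IRS1KO, and Polr1a (0.056), Polr1b (0.30) and Ubtf (0.23) in IRS2KO. Under this scaling the median log2 change of all tested genes was 0.24 in WT, 0.30 in IRS1KO and 0.33 in IRS2KO. The calls upward went from 51.6% to 79.7% of calls in WT, from 50.6% to 76.8% in IRS1KO and from 50.2% to 79.7% in IRS2KO. Between genotypes the main count of called genes was 0. For IRS1KO against WT in sham it was 1 (Polr1b) with only the groups in the contrast and 1 with library weights. For IRS1KO against IRS2KO in sham it was 1 with the same total, 2 (Nop56 and Polr1b) with only the groups in the contrast, 2 with library weights, 1 without the 3 TAC libraries nearest to sham, and 0 to 1 when leaving out each library (1 without IRS2KO sham replicate 2). Without those 3 TAC libraries, picked for their likeness to sham, it was 1 (Nop56) for IRS1KO against IRS2KO after TAC. It was then also 1 (Nop56) for the difference of response IRS1KO minus IRS2KO. Of the relations with Myc after TAC, those of Ncl (r = 0.74), Fbl (0.63), Nop56 (0.58) and Nop58 (0.72) lost their call without the 3 libraries, and Polr1b (0.80) and Ubtf (0.76) passed with the same total; the cause was not tested. Same-numbered libraries of different groups deviated together more often than others (median r 0.088, with 38 of 85 pairs or 44.7% above 0.1, against -0.024 and 80 of 425 or 18.8% for other numbers), a hint from the data and not from the labels. Not every pair was above 0.1, and for 15 of 35 libraries the best correlated library of another group had their own number. What the numbers stand for was not tested. The labels name no pairs, so the main model did not use the numbers. With the replicate block the counts of called genes after TAC were 6 in WT, 7 in IRS1KO and 6 in IRS2KO, as without it. Depth limits Myc most, with 25 to 51 reads per sham library.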
